A study of Mus musculus with 2 samples.

Results

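The genes described here are 34 genes of cholesterol and fatty acid synthesis and of their control, out of 55357 features listed in both count matrices. They were chosen by symbol: 19 enzymes of the sterol branch, 8 enzymes of the fatty acid branch, 4 regulators, 1 sterol carrier and 2 efflux pumps. The list was chosen on levels of such genes already seen in the same 2 libraries, so the differences between the libraries are given as a description and support nothing further. The tumours were subcutaneous grafts of RM-1 cells, a mouse line of prostate cancer, in C57BL/6 mice, and both libraries carry the genotype label WT. 1 library came from tumours given vehicle and 1 from tumours given RP-6306, an inhibitor of the kinase PKMYT1, both at day 10. The labels leave the number of mice behind each library unclear, and neither the sex nor the age of the mice is used here. With 1 library per arm there was no test: "higher" and "lower" compare these 2 libraries, and all intervals are 95% intervals that cover counting error only.

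Cells make cholesterol from acetyl-CoA by way of mevalonate, the isoprenoids, squalene and lanosterol, and they make fatty acids from the same acetyl-CoA through malonyl-CoA. Both branches are switched on by SREBP transcription factors, which are held in the endoplasmic reticulum by INSIG proteins through the escort SCAP when sterols are plentiful and are cut free when sterols run short. SREBP2, from Srebf2, acts mainly on the sterol branch, and SREBP1, from Srebf1, mainly on the fatty acid branch. Macrophages take up sterol with the lipid they engulf and export it through ABCA1 and ABCG1, whose genes are switched on by liver X receptors.

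Cells were assigned by marker genes. The tumour gate asked for Krt8 and Krt18, epithelial keratins, and for no Ptprc, a leukocyte gene. It allowed at most 2 UMIs (unique transcript molecules) each of macrophage, endothelial and fibroblast (Dcn, Lum, Pdgfra) lists, and 1 of Cd3 genes. It held 7356 of 9540 retained vehicle cells and 7659 of 10308 retained RP-6306 cells. Cdh5, on the endothelial list, still had 2054 and 2712 UMIs in the gate. With Cdh5 off that list the gate held 7809 and 8301 cells. The macrophage gate asked for Lyz2, the myeloid lysozyme gene, with other macrophage genes, and held 325 and 334 cells. Median depth was 9673.5 and 9578 UMIs per tumour-gate cell, and 4806 and 4427.5 per macrophage-gate cell. The labels of the gates held up in part: Krt8 stood at 994.6 CPM (UMIs of a gene relative to all UMIs of the gate, on a common scale) in vehicle and 769.7 CPM in RP-6306 tumour-gate cells, but Krt7, another keratin, was at 4 UMIs in each library, and Col3a1, a collagen gene of fibroblasts, was at 579.99 and 627 CPM. In the macrophage gate Lyz2 was at 5421 and 5299 CPM and Csf1r at 226 and 206 CPM. Keratin RNA reached 6.67% and 6.82% of its tumour-gate level there. That gate allowed at most 3 UMIs of Krt8 and Krt18 per cell, which bounds this share. The libraries shared 34 barcodes.

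The genes are known as a co-regulated set, so their promoters were read for the motifs of their regulators. RefSeq windows on GRCm38.p6, from 250 bases before to 50 bases after the start, were matched by symbol for 26 of the 34 genes. Fdps, Fdft1, Sqle, Scd1, Scd2, Fads1, Stard4 and Abcg1 have no such window. The stretches below run from 230 to 50 bases before the start, 5′ to 3′ along the gene. They show 5 genes whose level was lower in the RP-6306 library by the limit used below, and Ebp, which was within it. The genes are Hmgcs1 (chr13:119690121-119690301, plus strand), Pmvk (chr3:89454311-89454491, plus strand), Acat2 (chr17:12960775-12960955, minus strand), Cyp51 (chr5:4104747-4104927, minus strand), Insig1 (chr5:28071182-28071362, plus strand) and Ebp (chrX:8193562-8193742, minus strand). Capitals mark the sterol response element TCACNCCAC with at most 1 mismatch, and CCAAT or its reverse complement ATTGG. Matches elsewhere in the window, or cut by the end of a stretch, are not marked but enter the counts below. Among them are CCAAT at base -29 of Cyp51 and 1-mismatch matches at -9 of Insig1 and -53 of Acat2.
Hmgcs1: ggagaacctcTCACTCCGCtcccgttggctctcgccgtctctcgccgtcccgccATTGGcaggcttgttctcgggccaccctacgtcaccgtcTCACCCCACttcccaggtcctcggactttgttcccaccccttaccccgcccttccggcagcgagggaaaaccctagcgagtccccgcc
Pmvk: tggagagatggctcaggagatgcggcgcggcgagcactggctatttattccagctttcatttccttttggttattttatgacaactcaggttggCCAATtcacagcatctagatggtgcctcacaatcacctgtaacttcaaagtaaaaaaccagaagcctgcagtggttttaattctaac
Acat2: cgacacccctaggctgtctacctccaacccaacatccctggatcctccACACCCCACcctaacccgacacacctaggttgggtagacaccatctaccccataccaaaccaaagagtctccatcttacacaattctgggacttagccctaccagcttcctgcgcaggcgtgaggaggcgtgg
Cyp51: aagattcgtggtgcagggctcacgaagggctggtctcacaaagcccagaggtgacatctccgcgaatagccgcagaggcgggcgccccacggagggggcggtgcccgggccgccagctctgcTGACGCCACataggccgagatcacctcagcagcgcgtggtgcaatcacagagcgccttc
Insig1: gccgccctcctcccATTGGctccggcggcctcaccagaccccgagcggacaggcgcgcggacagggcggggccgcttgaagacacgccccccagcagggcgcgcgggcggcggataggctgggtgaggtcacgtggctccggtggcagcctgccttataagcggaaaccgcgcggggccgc
Ebp: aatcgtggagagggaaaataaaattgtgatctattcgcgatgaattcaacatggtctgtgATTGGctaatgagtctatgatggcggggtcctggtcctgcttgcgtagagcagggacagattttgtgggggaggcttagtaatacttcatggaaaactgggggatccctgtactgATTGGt

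The exact letters TCACNCCAC, read on both strands, occurred in 1 of the 26 windows, at base -137 of Hmgcs1 as TCACCCCAC. Among all 27025 genes with a window the share was 1.22%. With 1 mismatch allowed, a search added after the exact one, 9 of the 26 members held a match (34.6%), against 24.0% of all genes. CCAAT, on both strands, was in 14 of the 16 sterol enzyme windows (87.5%), against 37.9% of all genes and 38.9% of the genes tested in the tumour gate. The fatty acid enzymes held it in 2 of 5 windows. GGGCGG, the GC box, was also in 14 of the 16 sterol windows, against 35.9% of all genes but 69.7% of the genes tested in the tumour gate. The palindrome CANNTG was in 73.1% of the member windows, against 72.1% of all genes and 59.5% of the genes tested in the tumour gate. Of the sterol enzymes whose ratios between the libraries had intervals that held 1, Ebp and Ggps1 carried CCAAT 2 and 3 times. Dhcr7, also among them, had 0 in its first listed window, the one counted, and 2 in another. Acat2, which was lower past the limit used below, had 0. These are matches of letters in a window and not measured binding sites, and 1-mismatch matches can overlap CCAAT.

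In tumour-gate cells the sterol branch was lower in the RP-6306 library as a whole. The 19 sterol enzymes summed to 1061 CPM (interval 1054 to 1068) for vehicle cells and 803 CPM (797 to 809) for RP-6306 cells, a ratio of 0.757 (0.749 to 0.764). The early part, from acetyl-CoA to the isoprenoids, and the late part, from squalene to cholesterol, were lower alike, with ratios of 0.760 (0.749 to 0.770) and 0.753 (0.742 to 0.764). The 8 fatty acid enzymes summed to 409 and 340 CPM, a ratio of 0.831 (0.818 to 0.844). The branches therefore differed in size: there were 2.60 sterol UMIs per fatty acid UMI in vehicle and 2.36 in RP-6306 cells, a ratio of 0.910 (0.893 to 0.928).

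Gene by gene, a limit of 0.32 in either direction on log2(CPM + 1) was used, for genes with at least 100 UMIs over both libraries and a mean of at least 10 CPM. This scale understates differences of low genes. Of the 34 genes, 26 met these minimums in tumour-gate cells, and 15 of the 26 were lower in RP-6306 past the limit. Among all 7840 genes that met them, 2.65% were lower and 1.56% higher past it. No member was higher past the limit, and 25 of the 26 had the lower level in RP-6306. Their median log2 difference was -0.36, against -0.03 over all genes. Since these values chose the list, nothing is read from the contrast with the background. Without any minimum, the interval of the ratio lay below 1 for 27 of the 34 genes, above 1 for none and around 1 for 7.

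**Figure D1:**
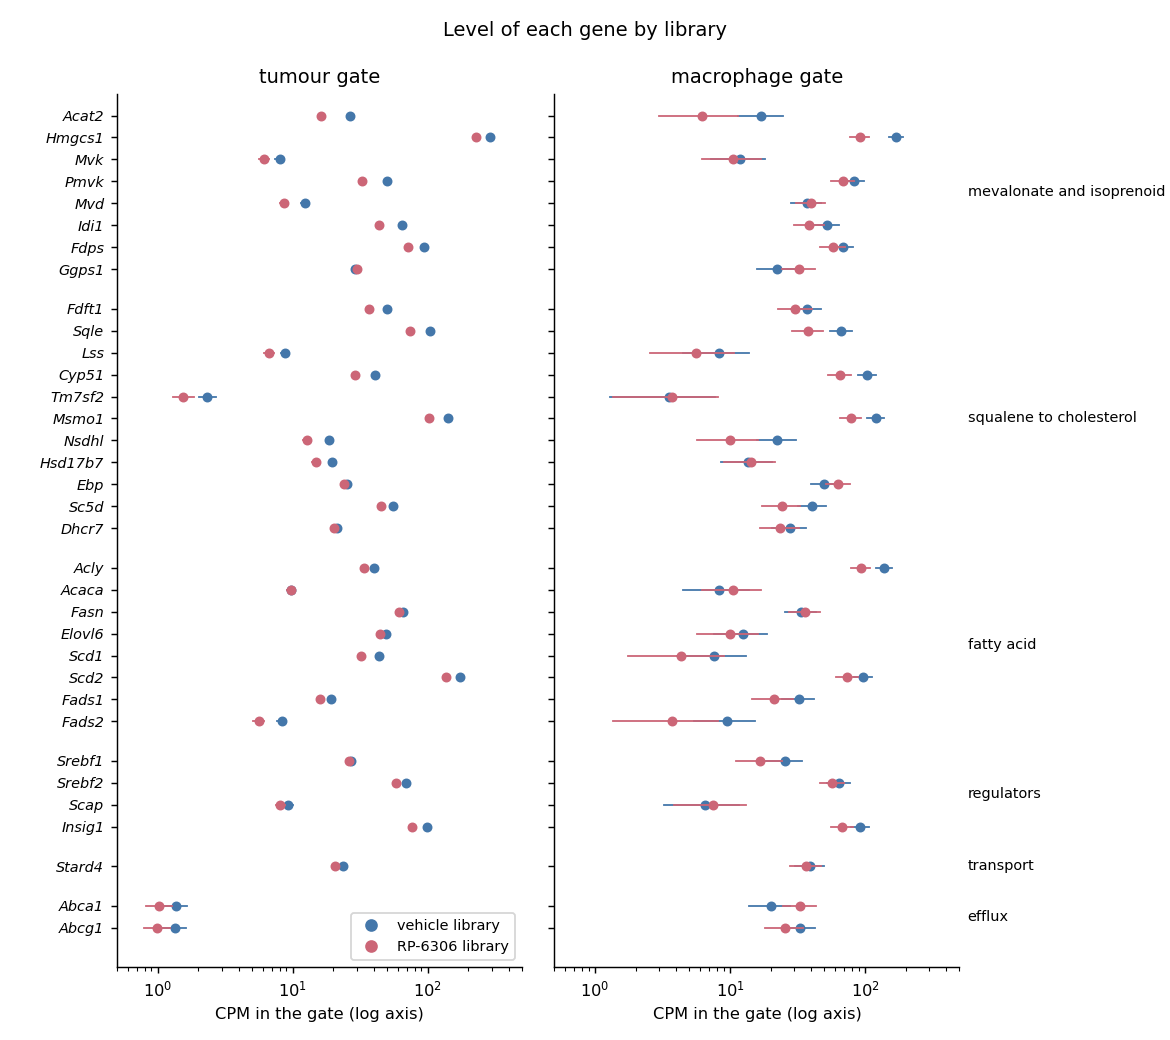
Level of each gene in CPM (log axis) in the tumour gate (left) and the macrophage gate (right), by library; bars are 95% counting intervals. Most tumour-gate pairs have the RP-6306 point left of the vehicle point, Ggps1 is an exception, and Abca1 and Abcg1 are near 1 CPM in tumour-gate cells but between 20.03 and 33.0 CPM in macrophage-gate cells.

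Among the enzymes of the mevalonate part, 6 of the 7 that met the minimums were lower past the limit. Hmgcs1, which makes HMG-CoA and lies at chr13:119690379-119708260, had the highest UMI count of the list. It stood at 288.5 CPM in vehicle and 227.3 CPM in RP-6306 cells, a ratio of 0.788 (0.773 to 0.803) and a log2 difference of -0.34. Acat2, the cytosolic thiolase that joins 2 acetyl-CoA, was at 26.7 and 16.2 CPM, a log2 difference of -0.69. That was the largest among the members that met the minimums. Pmvk, the kinase that adds the second phosphate to mevalonate, was at 50.2 and 32.8 CPM (log2 -0.60). Idi1, which isomerises the isoprenoid unit, was at 64.9 and 43.3 CPM (log2 -0.57). Both were lower by more than Hmgcs1. Mvd, which decarboxylates mevalonate diphosphate, stood at 12.4 and 8.64 CPM (log2 -0.47), and Fdps, the farnesyl diphosphate synthase, at 93.6 and 71.4 CPM (log2 -0.39). Mvk, the kinase before Pmvk, had too few UMIs for the minimums, with 8.02 and 6.13 CPM. Ggps1 makes geranylgeranyl diphosphate, which leaves the sterol route for protein prenylation. It was the member that was not lower, at 29.0 and 29.9 CPM, a ratio of 1.03 (0.973 to 1.09). The gene overlaps Arid4b on the other strand.

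Of the enzymes from squalene to cholesterol, 9 met the minimums and 6 were lower past the limit. Sqle, the squalene epoxidase, stood at 104.1 and 74.2 CPM, a ratio of 0.713 (0.689 to 0.737). Fdft1, the squalene synthase, was at 49.6 and 37.0 CPM (log2 -0.41), and overlaps Ctsb on the other strand. Cyp51, which removes a methyl group from lanosterol, was at 40.8 and 28.8 CPM (log2 -0.49). The enzymes that strip the next methyl groups followed: Msmo1 was at 142.1 and 102.2 CPM (log2 -0.47) and Nsdhl at 18.6 and 12.8 CPM (log2 -0.51). Hsd17b7, the ketoreductase of the same step, was at 19.7 and 14.8 CPM (log2 -0.39). The last steps were nearer to equal. Sc5d, the desaturase of the ring, did not reach the limit, at 55.2 and 44.9 CPM (log2 -0.29). Ebp, the sterol isomerase, was at 25.2 and 23.9 CPM with a ratio of 0.948 (0.891 to 1.01). Dhcr7, the final reductase of one route, was at 21.1 and 20.2 CPM with a ratio of 0.956 (0.893 to 1.02). For these last 2 genes the interval held 1. Lss, the lanosterol synthase, and Tm7sf2, a sterol reductase, did not meet the minimums at 8.78 and 6.72 CPM and at 2.33 and 1.55 CPM. Tm7sf2 overlaps Vps51 on the same strand, so its reads may be shared.

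**Figure D2:**
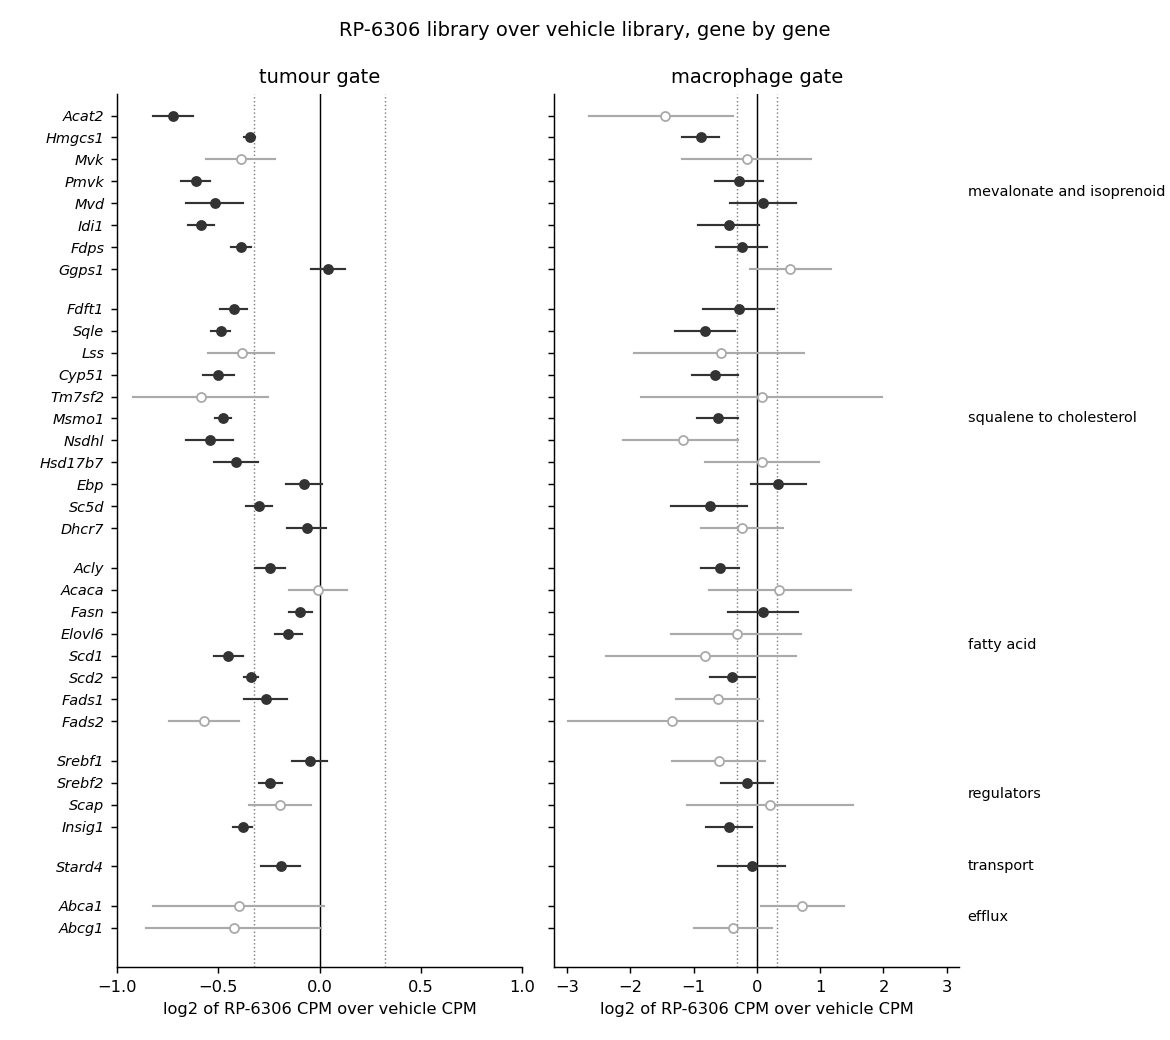
log2 of the RP-6306 over the vehicle level of each gene in the tumour gate (left) and the macrophage gate (right, wider axis), with 95% counting intervals. Filled points met the minimums, open points did not, and dotted lines mark the limit of 0.32. In the tumour gate the largest difference among filled points is Acat2 (0.606-fold), and Ggps1 is the only filled point right of 0.

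The fatty acid enzymes were divided. Scd1 and Scd2, the stearoyl-CoA desaturases, were the 2 of 6 lower past the limit: Scd1 stood at 43.5 and 31.8 CPM (log2 -0.44) and Scd2 at 172.6 and 136.6 CPM (log2 -0.34). Scd2 and Hmgcs1 passed the limit of 0.32 by little. Acly, which supplies cytosolic acetyl-CoA to both branches, was at 40.0 and 33.8 CPM (log2 -0.24). Fasn, the fatty acid synthase itself, was at 65.7 and 61.6 CPM, with a ratio of 0.937 (0.901 to 0.974). Elovl6, the elongase of palmitate, was at 49.4 and 44.4 CPM (log2 -0.15), and Fads1, a desaturase of polyunsaturated chains, at 19.3 and 16.0 CPM (log2 -0.25). Acaca, the acetyl-CoA carboxylase, was at 9.72 and 9.67 CPM, with a ratio of 0.994 (0.900 to 1.10), and Fads2, a second desaturase of polyunsaturated chains, at 8.31 and 5.60 CPM. Neither met the minimums. The enzymes that build the chain, Acaca and Fasn, thus differed least, and those that desaturate it differed most. Scd1 and Scd2 are close relatives, and reads shared between them may have been discarded.

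Among the regulators, Insig1 was lower past the limit and the others were not. Insig1, the sterol-sensing anchor and itself a known SREBP target, was at 99.7 and 76.7 CPM, with a ratio of 0.769 (0.744 to 0.795). Srebf2 was at 68.7 and 58.0 CPM, with a ratio of 0.845 (0.813 to 0.879), and Srebf1 at 27.2 and 26.3 CPM, a ratio of 0.966 (0.910 to 1.03). Srebf1 overlaps Rai1 on the other strand. Scap stood at 9.31 and 8.13 CPM, under the minimum. Stard4, a soluble sterol carrier, was at 23.5 and 20.6 CPM, with a ratio of 0.876 (0.820 to 0.936). Abca1 and Abcg1 were barely detected in tumour-gate cells, at 1.36 and 1.03 CPM and at 1.33 and 0.995 CPM.

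Other genes of lipid metabolism were read from lists that do not hold the members. Over all 7840 genes, 2.65% were lower and 1.56% higher past the limit. A count of 0 in a short list is near those shares. Of 12 genes for the supply and elongation of fatty acids, 11 met the minimums and none was past the limit, with a median log2 difference of -0.00. Over all 12, the interval of the ratio lay below 1 for 5 and above 1 for 2. Slc25a1, the mitochondrial citrate carrier, was the lowest at 37.8 and 31.2 CPM. Of 8 genes of sterol control and trafficking none was past it, with a median of -0.10. The interval of the ratio lay below 1 for 7 of these 8. Insig2, the paralog of Insig1, stood at 47.7 and 40.3 CPM. In a list of 10 macrophage lipid genes, 2 of the 5 that met the minimums were past the limit. Plin2, the coat protein of lipid droplets, was higher in RP-6306 tumour-gate cells at 181 and 240.5 CPM, and Fabp5, a fatty acid binding protein, was lower at 116.2 and 88.7 CPM.

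The macrophage gate showed a like difference on far fewer UMIs. The sterol enzymes summed to 954 CPM (908 to 1002) for vehicle and 701 CPM (661 to 744) for RP-6306 cells, from 1620 and 1129 UMIs, a ratio of 0.735 (0.681 to 0.793). The fatty acid enzymes summed to 339 and 252 CPM, a ratio of 0.745 (0.654 to 0.847). There were 2.82 and 2.78 sterol UMIs per fatty acid UMI, a ratio of 0.987 (0.851 to 1.14). That interval holds 1 and also the tumour-gate ratio of 0.910, so the gates cannot be told apart on this. Of the 34 genes, 17 met the minimums, 9 were lower past the limit and 1 was higher. Among all 4555 genes that met them in this gate, 9.75% were lower and 8.25% higher past the limit. Free RNA from tumour cells could add to these levels. With the tumour-gate level scaled by the keratin share subtracted, an alternative added after seeing the data, the sterol ratio was 0.732 and the fatty acid ratio 0.735. Because the gate itself limits Krt8 and Krt18, this share may understate free tumour RNA, and the subtraction cannot size its part. Fibroblast markers summed to 166.1 CPM in vehicle and 90.1 CPM in RP-6306 macrophage-gate cells, all 5 detected, and their part in the result was not tested.

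In macrophage-gate cells Hmgcs1 stood at 169.1 and 91.3 CPM (287 and 147 UMIs), a log2 difference of -0.88. Sqle was at 66.6 and 37.9 CPM (log2 -0.80), Sc5d at 40.6 and 24.2 CPM (log2 -0.72), Cyp51 at 103.1 and 65.2 CPM (log2 -0.65) and Msmo1 at 120.2 and 78.3 CPM (log2 -0.61). These 5 enzymes had intervals of the ratio below 1. Acly, the acetyl-CoA supplier, differed more here than in tumour-gate cells, at 138.4 and 92.6 CPM (log2 -0.58), and that difference between gates was not tested. Idi1 was at 52.4 and 38.5 CPM, with an interval that held 1 (0.522 to 1.03). Insig1 was at 91.9 and 67.7 CPM, with a ratio of 0.737 (0.572 to 0.947), and Scd2 at 96.6 and 73.9 CPM, a ratio of 0.765 (0.599 to 0.975). Ebp was the gene past the limit in the other direction, at 50.1 and 63.4 CPM, with an interval that held 1 (0.940 to 1.71). Fasn was at 33.6 and 36.0 CPM and Mvd at 37.1 and 39.8 CPM, both near equal. Srebf2 was at 63.6 and 57.2 CPM and Srebf1 at 25.3 and 16.8 CPM, both with intervals around 1. Scap had 11 and 12 UMIs, and Scd1 had 13 and 7. Pmvk (141 and 110 UMIs), Fdps (116 and 93), Fdft1 (63 and 49) and Stard4 (66 and 59) met the minimums and lay within the limit. Among the genes too low for the minimums, Acat2 (29 and 10 UMIs) and Nsdhl (38 and 16) had intervals below 1. The other such enzymes and regulators had intervals that held 1, Ggps1 with 38 and 52 UMIs among them.

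The efflux pumps went apart in macrophage-gate cells. Abca1 stood at 20.03 CPM in vehicle and 32.9 CPM in RP-6306 cells (34 and 53 UMIs), a ratio of 1.64 (1.05 to 2.61). Abcg1 was at 33.0 and 25.5 CPM (56 and 41 UMIs), a ratio of 0.772 (0.503 to 1.18). Neither reached 100 UMIs over both libraries. Plin2 was at 311.6 and 531.8 CPM there, a ratio of 1.71 (1.53 to 1.91). Lpl, the secreted lipase of lipoproteins, was at 86.6 and 38.5 CPM, with a ratio of 0.445 (0.325 to 0.602). Apoe, an acceptor of exported sterol, was at 3078 and 3821 CPM, within the limit. Of the 7 genes of that list that met the minimums, Plin2 was past the limit higher and Lpl lower.

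The tumour and macrophage gates were also compared within each library on its own. Of 26 members tested for this, macrophage-gate cells were higher by at least 2-fold for 3 in vehicle (12.2% of 8307 genes) and 5 in RP-6306 (12.5% of the same genes), and lower for 2 (18.8% of genes) and 4 (19% of genes). These counts are small and not far from the shares of all genes, so nothing is read from them about the members as a set. Acly was 3.46-fold higher in macrophage-gate than tumour-gate cells of the vehicle library (3.02 to 3.95) and 2.74-fold higher in RP-6306. Mvd was 3.004-fold and 4.60-fold higher, and Cyp51 2.53-fold and 2.26-fold higher. In the other direction, Scd1 stood at 0.176 times its tumour-gate level in vehicle macrophage-gate cells and Elovl6 at 0.250 times. In RP-6306 the values were 0.137 and 0.224. Abca1 and Abcg1, which did not meet the minimums over both gates, were 14.7-fold and 24.7-fold higher in vehicle macrophage-gate cells.

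Small gates for other cells gave wide intervals. In 40 vehicle and 54 RP-6306 fibroblast-gate cells the sterol enzymes stood at 690 and 480 CPM, a ratio of 0.696 (0.561 to 0.863). In 27 and 40 T cell gate cells they were at 731 and 595 CPM, a ratio of 0.814 (0.510 to 1.30). In 29 and 19 endothelial-gate cells they were at 343 and 356 CPM, a ratio of 1.04 (0.708 to 1.51). The counting interval lay below 1 in the fibroblast gate and held 1 in the other 2 gates. These intervals leave out variation between cells, and no difference was tested.

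Within the tumour gate the difference was spread over cells and did not rest on a few. Each cell was thinned to 4000 UMIs, and 336 vehicle and 429 RP-6306 cells with fewer were left out. The 19 sterol enzymes then gave a mean of 4.03 UMIs per vehicle cell and 3.08 per RP-6306 cell. The median was 3 and 2, the 90th percentile 9 and 7, and the 99th percentile 17 and 13, so the whole distribution stood lower. Cells with no sterol UMI were 12.5% and 15.5%. The fatty acid enzymes gave means of 1.61 and 1.33, and no UMI in 25.5% and 30.2% of cells. The variance over the mean was 3.78 and 2.83 for the sterol sum and 1.42 and 1.21 for the fatty acid sum, so sterol enzymes varied more from cell to cell than independent counting would give.

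**Figure D3:**
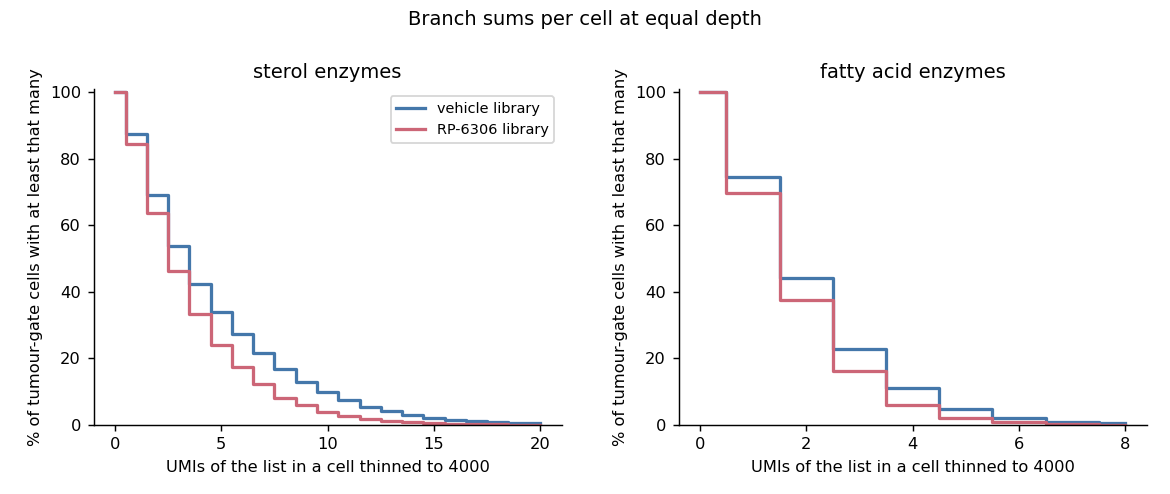
Share of tumour-gate cells (%) with at least a given number of UMIs of the sterol enzymes (left) or the fatty acid enzymes (right), after thinning each cell to 4000 UMIs, by library. The RP-6306 line lies below the vehicle line at each plotted count from 1 up. In the left panel 9 UMIs is the 90th percentile in vehicle and 7 in RP-6306.

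The sterol genes varied together from cell to cell. Across 7020 thinned vehicle cells, Pearson's r of a gene with the sum of the other sterol enzymes was 0.41 for both Hmgcs1 and Msmo1, 0.35 for Fdps, 0.34 for Sqle and Idi1 and 0.30 for Insig1. Among 7814 other genes the median r was 0.00 and the 99th percentile 0.12. In 7230 RP-6306 cells the values were lower: Hmgcs1 0.35, Msmo1 0.30, Idi1 0.26, Sqle 0.22 and Insig1 0.24. Those cells also held fewer sterol UMIs at the same depth (mean 3.08 against 4.03). Fewer UMIs go with lower r: in vehicle cells the median r of the sterol enzymes was 0.200 at 4000 UMIs and 0.130 at 2000. The part of this in the difference between libraries was not tested. Ggps1 stood apart, at -0.01 and 0.02, as did Srebf1, at 0.00 and 0.01. Srebf2 followed the sterol sum more, at 0.16 and 0.13, and Scap did not, at 0.00 and 0.01. Abca1 was at -0.05 and -0.03. Cells of a library share depth after thinning, but low genes give low r from counting noise alone.

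The fatty acid enzymes tracked the sterol sum at least as closely as their own. Their median r with the sterol sum was 0.12 in vehicle and 0.08 in RP-6306 cells, and with the sum of the other fatty acid enzymes 0.08 and 0.05. The sterol sum holds more UMIs per cell. Fasn was at 0.15 and 0.11 with the sterol sum and Elovl6 at 0.14 and 0.12. The 2 sums had r of 0.26 and 0.19 with each other. Across the 26 members that met the minimums, r with the sterol sum in vehicle cells was set against the log2 difference between libraries. Spearman's rho was -0.64 (Pearson's r -0.60). Such differences between the libraries were known when the list was chosen, so rho describes the listed genes and supports nothing further. The points share the vehicle library, and r was also higher for more abundant genes (rho 0.59 with the vehicle CPM), while the difference between libraries had a rho of -0.13 with abundance. Among the 16 sterol enzymes alone rho was -0.34. With r taken in RP-6306 cells, rho with the difference was weaker over the 26 members, at -0.47, and -0.35 over the 16. That r had a rho of 0.72 with the vehicle CPM. Ggps1, Srebf1, Ebp and Dhcr7 lay at the low end of both measures.

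**Figure D4:**
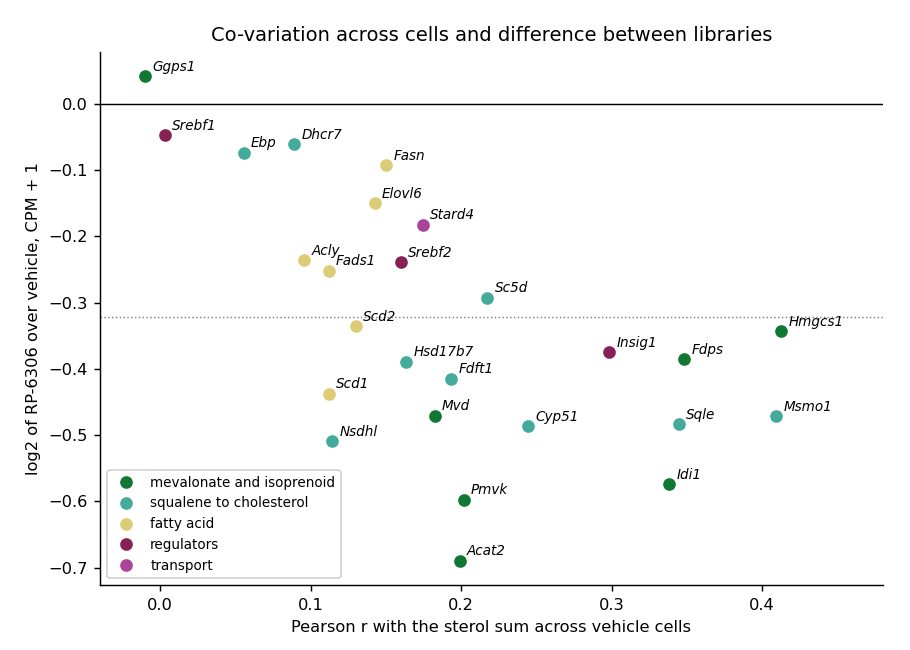
Each point is 1 of 26 genes, coloured by role: Pearson's r of the gene with the sum of the other sterol enzymes across 7020 vehicle tumour-gate cells (x axis) against the log2 difference between libraries (y axis, CPM + 1); the dotted line marks the limit of -0.32. Ggps1 and Srebf1 sit at r near 0 with log2 differences of 0.04 and -0.05, and genes with r above 0.2 lie at or below -0.29.

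Tumour-gate cells were also compared within each library by how much of another programme they held, using 10 genes per programme and none of the members. Cells at or past the count that marks the highest 20% were set against those at or below the count of the lowest 20%, with ties kept, so the ends differ in size and in their counts between libraries. Cells high in mitosis genes had 1.23 times (vehicle) and 1.29 times (RP-6306) the sterol level of low cells, and cells high in S phase genes 1.41 and 1.253 times. For cells high in ER chaperones, the folding helpers of the endoplasmic reticulum, the values were 1.26 and 1.39. The sterol level was thus higher in cells with more cycle or chaperone RNA. Cells high in interferon genes stood at 0.958 (0.935 to 0.981) and 0.893 (0.865 to 0.922). The fatty acid sum was at 0.980 and 1.05 for mitosis, 1.12 and 1.08 for S phase and 1.16 in both libraries for ER chaperones, each nearer to 1 than the sterol sum. For interferon it was at 0.956 and 0.916, close to the sterol values.

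**Figure D5:**
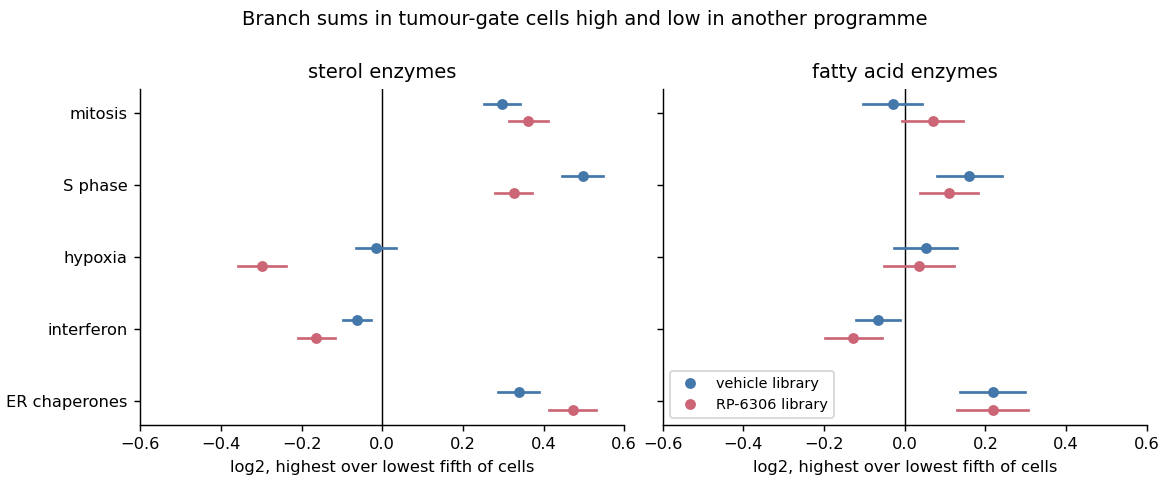
log2 of the level in cells at the high end over cells at the low end of each programme, for the sterol enzymes (left) and the fatty acid enzymes (right), by library, with 95% counting intervals. Sterol values are right of 0 for mitosis, S phase and ER chaperones, left of 0 for interferon, and for hypoxia left of 0 in RP-6306 (0.813-fold) but around 0 in vehicle (0.989-fold).

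Cells high in hypoxia genes split the members. The sterol sum was at 0.989 times (0.955 to 1.02) the level of low cells in vehicle and 0.813 times (0.780 to 0.847) in RP-6306, and the fatty acid sum at 1.04 and 1.02 times. Behind these sums, single genes went opposite ways in both libraries. Hmgcs1 was lower in hypoxia-high cells, at 0.734 times (0.684 to 0.787) and 0.648 times (0.599 to 0.702), while Sqle was higher, at 1.33 times (1.19 to 1.48) and 1.30 times (1.14 to 1.48). Fasn was lower, at 0.752 and 0.812 times, and Scd2 was higher, at 1.27 times (1.17 to 1.38) and 1.44 times (1.31 to 1.58). Scd1 was at 1.37 and 1.12 times, the second with an interval that held 1. Srebf1 was at 1.30 times (1.06 to 1.60) in vehicle and 0.794 times (0.640 to 0.983) in RP-6306. At a depth of 2000 UMIs Hmgcs1 (0.774 and 0.645) and Scd2 (1.24 and 1.201) stayed on opposite sides of 1 with intervals clear of it. For Sqle (1.11 in both libraries) the intervals then held 1, and so did those of Srebf1 (0.991 and 0.869) and Scd1 (1.21 and 0.987) and that of Fasn in vehicle cells (0.899).

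The difference between the libraries was present at both ends of each programme. The RP-6306 over vehicle ratio of the sterol sum lay between 0.693 and 0.843 over the 10 ends and that of the fatty acid sum between 0.799 and 0.881, all below 1. In cells low in interferon genes the sterol ratio was 0.786 (0.767 to 0.805), and in cells low in mitosis genes 0.779 (0.757 to 0.801). It was lowest in hypoxia-high cells, at 0.693 (0.665 to 0.721), and highest in hypoxia-low cells, at 0.843 (0.813 to 0.874). These are the extremes of the 10 ends, the hypoxia cuts differed between the libraries, and the contrast was not tested. Leaving out cells with Mki67 or Top2a, 2 mitosis genes, gave 0.761 for the sterol sum and 0.836 for the fatty acid sum.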

How the data were processed

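The 2 libraries were made with a 10x Genomics 3′ kit, per the labels. The deposited files hold raw UMI counts per gene and barcode. Cell Ranger 7.1.0 wrote them, per the file headers; Cell Ranger 2.1.1 and build mm10 are named per the submitters' processing notes, and the difference was not resolved. Such counting discards reads shared between near-identical genes. The vehicle library held 100815022 UMIs in 9686 barcodes and the RP-6306 library 106465655 in 10512.

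Barcodes with at least 500 genes and at most 15% mitochondrial UMIs were kept, which removed 146 and 204. The tumour gate needed 2 UMIs of Krt8 and Krt18, and the macrophage gate 2 of Lyz2 with 3 of 9 further markers. No doublet caller was run. The tumour gate limits leukocyte, endothelial and some fibroblast markers. The macrophage gate limits T cell genes, keratins and S100a8 with S100a9, but neither fibroblast nor endothelial markers. The T cell, endothelial and fibroblast gates were set after seeing the data. UMIs were summed per gate and library and scaled to CPM, with exact Poisson intervals for levels and exact conditional intervals for ratios. Python 3.11.15, numpy 2.4.6, scipy 1.17.1, pandas 2.3.3 and matplotlib 3.10.9 were used. The ratio intervals and the call past the limit were tested on simulated counts. Thinning was checked for equal depth on real vehicle barcodes, and the other steps had no such test. Gene positions are from GENCODE on GRCm38 by gene identifier.

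Members and lists were chosen with earlier results of these data known. Named in full were Hmgcs1, Idi1, Sqle, Insig1, Srebf1, Srebf2, Scap, Fasn, Acly, Scd1, Scd2, Abca1, Abcg1 and each member past the limit of 0.32 (log2) in either gate. Genes named from other lists were chosen after their values were seen. Alternatives covered scaling, filters, gates, doublets, pseudocount, minimums, cycling cells, top cells and depth.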

Additional observations from a re-analysis of the deposited data

Results flagged for a closer look

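Srebf1, the gene of SREBP1, stood apart among the values within libraries because cells high in hypoxia genes differed from low cells in opposite directions: its level was 1.30 times that of low cells in the vehicle library (219 and 169 UMIs) and 0.794 times in the RP-6306 library (149 and 214 UMIs). The difference between the libraries was not tested. Thinned to 2000 UMIs per cell, the ratios were 0.991 and 0.869, and both intervals held 1.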

How the results depend on the processing

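The direction of the 4 summed ratios and the absence of a tumour-gate member past the limit higher held under each alternative run. Median-of-ratios scaling, which takes out a shift of -0.03 (log2) between the libraries and so brings the ratios nearer to 1, gave 0.773 for the sterol and 0.849 for the fatty acid sum in tumour-gate cells, and the mean of per-cell CPM gave 0.782 for the sterol sum. Without Hmgcs1 the sterol ratio was 0.745, and without Scd2 the fatty acid ratio was 0.860, 2 alternatives added after seeing the data. The count of tumour-gate members lower past the limit was 15, and between 13 and 19 under the alternatives. In the macrophage gate the count of members higher past the limit was 1; it was 0 without the barcode filter and with a stricter gate, 3 without the keratin limit, and 4 with a minimum of 10 UMIs and none on CPM, where all 34 genes enter and 17 against 9 were lower. Scd1, with 13 and 7 UMIs there, went from a log2 difference of -0.70 to 0.0808 with the mean of per-cell CPM; the cause was not tested.

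Thinning to 2000 UMIs, which leaves fewer UMIs per cell, moved within-library values. In vehicle cells the sterol ratio of high over low cells was 1.27 for mitosis and 0.946 for hypoxia, and the fatty acid ratio for interferon 0.898. In RP-6306 cells the sterol ratio was 1.19 for S phase, 0.953 for interferon and 1.47 for ER chaperones, and the fatty acid ratio was 0.917 for hypoxia and 0.988 for interferon. The fatty acid value for hypoxia thus changed side there, from 1.02. The median r of the sterol enzymes with their own sum was 0.130 (vehicle) and 0.101 (RP-6306), and that of the fatty acid enzymes with the sterol sum 0.0826 and 0.0537. In vehicle cells the median r with the fatty acid sum was 0.0643 for sterol and 0.0379 for fatty acid enzymes. Of the single-gene values under alternatives, 415 stayed within their interval, 11 moved outside it and 1 changed sign. Depth limits the macrophage gate, where 17 of 34 genes did not meet the minimums, and the T cell and endothelial gates. No paired analysis was possible because each arm holds 1 library.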
